A study of Mus musculus with 12 samples.

Results

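The genes that encode the chains of the collagens, with the lysyl oxidases that cross-link them, were followed after spared nerve injury in the dorsal root ganglia of male C57BL/6J mice. Members were taken by symbol. They are every gene named Col, a number, a and a number, together with Lox, Loxl1, Loxl2, Loxl3 and Loxl4, which gave 49 of the 24060 genes in the files, 44 collagen chains and 5 lysyl oxidases. A gene was tested where it reached 1 RPKM (reads scaled to gene length in kilobases and to library size) in at least 3 libraries. This held for 34 of the 49 members, 30 collagen chains and 4 lysyl oxidases, and for 14195 genes in all.

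The 4 groups were naive mice and mice at day 1, day 3 and day 7 after the injury, with 3 bulk RNA-seq libraries each, all from animals aged 9 to 10 weeks. In this injury the tibial and the common peroneal nerve are tied off and cut while the sural nerve, the remaining sciatic branch, is spared, and the ganglia hold the cell bodies of the sensory neurons with their glia, vessels and connective tissue. Sham surgery was not analysed here, so the operation and the nerve injury cannot be told apart. The labels do not give the side or level of the ganglia or how many animals went into a library, so p-values speak to the spread among these libraries, part of which may be technical.

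Collagens are built from chains that wind into a triple helix. Fibrillar collagens such as types I, III and V form the fibres of the epineurium and endoneurium, type IV forms the sheet of the basement membrane around Schwann cells, satellite glia and vessels, and fibril-associated collagens coat the fibres. Lysyl oxidases are secreted copper enzymes that oxidise lysine side chains so that neighbouring collagen or elastin molecules become joined by covalent cross-links.

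The upstream windows of 3 fibrillar chains on which the time courses below turn are shown for context, Col5a3 with its late rise and Col3a1 and Col1a2 with their low point at day 1. Each line is the 250 bases before the RefSeq start in GRCm38.p6, written 5′ to 3′ on the strand of the gene, at chr9:20815068-20815317 (minus strand) for Col5a3, chr1:45311288-45311537 (plus strand) for Col3a1 and chr6:4505368-4505617 (plus strand) for Col1a2. The Col1a2 window lies inside the gene as GENCODE bounds it, downstream of the start given below, while the other windows end next to the GENCODE start. Capitals mark matches on either strand. The GC box was searched for as GGGCGG and the box that NF-Y is known to bind as CCAAT. The box near many start sites known for binding TBP was searched for as TATAAA. An element of the AP-1 family was written with an open middle base as TGANTCA, and the core of the element that hypoxia-inducible factors bind as ACGTG.
Col5a3: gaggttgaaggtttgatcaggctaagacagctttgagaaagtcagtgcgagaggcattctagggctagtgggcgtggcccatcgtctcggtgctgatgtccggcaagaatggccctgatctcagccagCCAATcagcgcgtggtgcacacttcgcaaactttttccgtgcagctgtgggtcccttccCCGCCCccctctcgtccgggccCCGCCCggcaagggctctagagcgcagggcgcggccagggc
Col3a1: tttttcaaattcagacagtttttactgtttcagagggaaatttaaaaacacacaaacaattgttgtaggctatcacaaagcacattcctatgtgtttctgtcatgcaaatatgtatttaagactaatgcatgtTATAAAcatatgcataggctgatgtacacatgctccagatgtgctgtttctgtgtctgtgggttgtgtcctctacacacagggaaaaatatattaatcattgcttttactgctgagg
Col1a2: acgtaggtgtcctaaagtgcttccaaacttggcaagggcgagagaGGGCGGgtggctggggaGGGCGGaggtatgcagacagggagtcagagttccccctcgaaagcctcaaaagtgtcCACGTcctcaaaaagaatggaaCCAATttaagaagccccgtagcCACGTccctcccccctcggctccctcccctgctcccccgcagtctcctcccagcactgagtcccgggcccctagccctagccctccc
The Col5a3 window held 1 CCAAT and 2 GGGCGG matches, the Col3a1 window 1 TATAAA match, and the Col1a2 window 1 CCAAT, 2 GGGCGG and 2 ACGTG matches. RefSeq windows were found for 36 members, 39 windows in all. GGGCGG was in 23 of these 39 and in 32.7% of all 32851 windows of that length, CCAAT in 13 and 33.8%, TATAAA in 5 and 12.4%, ACGTG in 5 and 16.6%, and TGANTCA in 1 and 6.75%. The matches are descriptions of the letters and show no binding.

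Libraries held 13627000 to 17953000 reads, recovered from the steps between the deposited values, so that a single read per kb corresponded to 0.0557 to 0.0734 RPKM. The tested members had from 33 reads upward in each library. Pearson's r between replicates lay between 0.953 and 0.976 across genes. Markers of sensory neurons summed to between 1300 and 2760 RPKM in every library, the largest sum of the marker lists. Skeletal muscle markers summed to 45.6 RPKM in naive replicate 1 and 31.5 RPKM in day 7 replicate 2, against at most 15.2 RPKM in the other libraries. On the second principal component of all genes, day 7 replicate 1 and naive replicate 1 lay at opposite ends.

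Of the 34 tested members 4 (11.8%) passed the test for any difference among the 4 groups, where 4.78% of all genes tested did. Against naive, Loxl2 and Col5a3 rose at day 3 and day 7, Col3a1 fell at day 1 and Col16a1 rose at day 1. The rise of Col16a1 was just inside the threshold given below and was lost in most other settings. Col3a1 was also higher at day 7 than at day 1. In bulk tissue, fewer cells of a type and less RNA per cell cannot be told apart, which applies to every result here. Differences below are on the scale of log2(RPKM + 0.5) with their standard error, from limma over all genes tested, with Benjamini-Hochberg adjusted p and a threshold of 0.05. Fold changes on that scale understate the change of low genes. Levels and overlaps between libraries are given in RPKM before scaling between libraries, whereas the tests use scaled values.

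At day 1 against naive 2 of the 34 members passed, 1 higher and 1 lower, where 3.44% of all genes tested passed. At day 3 it was 2, both higher, against 5.81% of all genes, and at day 7 it was again 2, both higher, against 2.88%. These 3 comparisons share the naive libraries. Since 2 of 34 is 5.88%, the number of members that changed lay near that of genes in general at day 3 and, as 2 genes, is too small to set apart at the other days. The median difference of the members from naive was -0.033 at day 1, -0.049 at day 3 and 0.164 at day 7, where all genes tested had medians of -0.007, -0.008 and -0.011.

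Between injured days, 1 member passed at day 3 against day 1, where 0.493% of all genes did. At day 7 against day 1 it was 4, all higher at day 7 (Loxl2, Col3a1, Col1a2 and Col5a3), a share of 11.8% against 0.937% of all genes. The median difference of the members at day 7 against day 1 was 0.187, against -0.008 for all genes, and 12 of the 34 had an unadjusted p under 0.05, against 1498 of the 14195 genes. At day 7 against day 3 limma called 0 members and 0% of all genes. There 9 members and 719 genes had an unadjusted p under 0.05, and voom on the recovered reads also called 0 members. For the mean of the 3 injured days against naive, 3 members passed (Loxl2 and Col5a3 higher, Col11a1 lower), where 5.95% of all genes did. In the test for any difference among the 4 groups 4 members passed (Loxl2, Col5a3, Col3a1 and Col1a2), where 4.78% of all genes did. An unadjusted p under 0.05 was found there for 14 of the 34 members and 2382 of the 14195 genes.

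**Figure D1:**
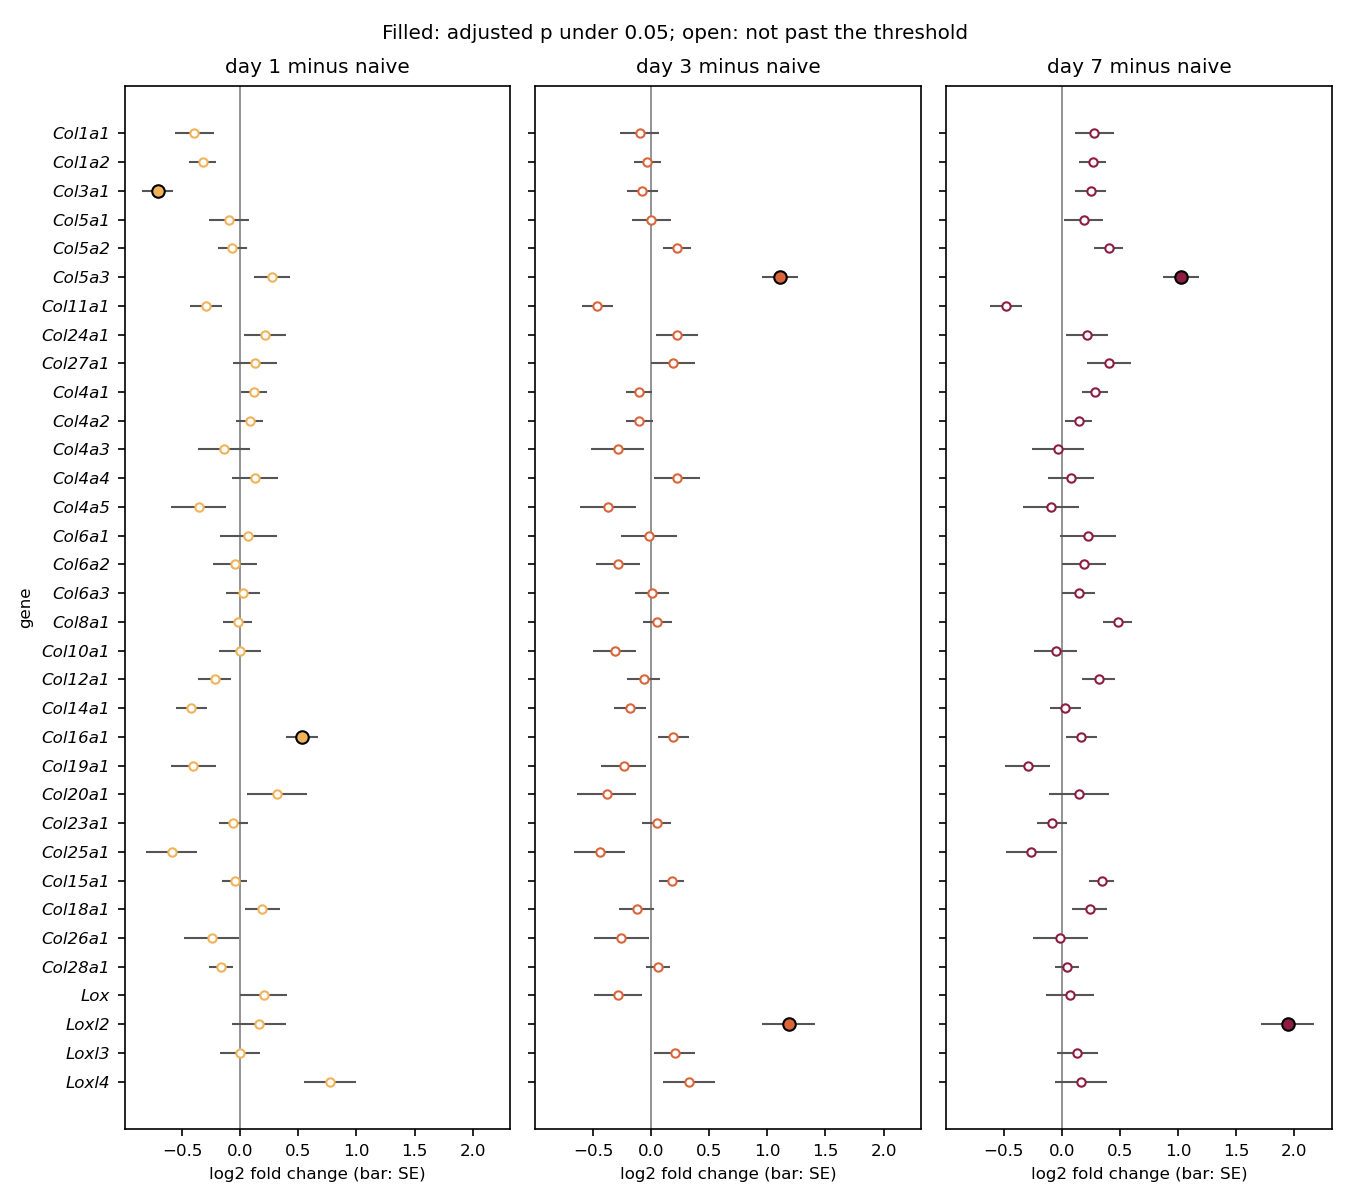
Difference from naive of each of the 34 tested members (rows, by role) at day 1, day 3 and day 7, in log2 units, with bars for the standard error and filled points for an adjusted p under 0.05. Loxl2 and Col5a3 stand apart on the right at day 3 and day 7, with differences of 1.18 and 1.11 at day 3 and 1.94 and 1.02 at day 7.

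Of the 4 tested lysyl oxidases Loxl2 passed, and its rise at day 7 was the largest of any member. Loxl2, a secreted enzyme known to cross-link type IV collagen of basement membranes, lies on chromosome 14 from 69609068 to 69695834 on the plus strand (GRCm38). Its level was 0.889, 0.644 and 1.36 RPKM in the naive libraries, 1.36, 0.926 and 1.04 RPKM at day 1, 2.31, 3.08 and 3.18 RPKM at day 3, and 5.64, 6.02 and 3.97 RPKM at day 7. Naive and day 1 overlapped, all day 3 libraries lay above both, and all day 7 libraries lay above all day 3 libraries. These levels rest on 56 to 551 reads a library.

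The mean of Loxl2 at day 7 was 5.21 ± 1.09 RPKM, against 0.965 ± 0.364 RPKM in naive (SD, n = 3 each), 5.40 times the naive mean. On the log2 scale this was a rise of 1.94 ± 0.23 (limma, adjusted p = 0.000187). The rise at day 3 was 1.18 ± 0.23 (adjusted p = 0.00646), and at day 1 the difference was 0.16 ± 0.23 (adjusted p = 0.821). Day 7 also exceeded day 1, by 1.78 ± 0.23 (adjusted p = 0.00368), while day 7 against day 3 gave 0.76 ± 0.23 and did not pass (adjusted p = 0.824). The rises at day 3 and day 7 passed the threshold in all 21 other settings run, which varied the pseudocount, the filter, the scaling, the model and the libraries included. Of the 34 tested members 24 overlap another annotated gene, 15 on the other strand and 15 on the same strand. Among them, Loxl2 overlaps Gm27177 and Gm37513 and Col5a3 overlaps Gm26274 on the other strand, and Loxl2 overlaps Mir6950, Col3a1 overlaps Gm47302 and Col1a2 overlaps Gm43921 on the same strand. How reads in such stretches were assigned, and with which strand setting, is not given in the sources used here, so they cannot be told apart.

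Lox, the founding member of the family, which cross-links fibrillar collagen and elastin, was the most abundant of the 5 in naive ganglia. Its level was 6.84, 7.28 and 7.999 RPKM in naive, 9.66, 9.18 and 6.92 RPKM at day 1, 4.63, 7.26 and 6.85 RPKM at day 3, and 9.86, 6.85 and 7.48 RPKM at day 7. Every injured day overlapped naive, and no test of Lox passed (adjusted p = 0.519 among the 4 groups). As a share of the summed RPKM of the 5 enzymes, Loxl2 made up 8.40 ± 2.59% in naive, 8.05 ± 1.45% at day 1, 22.1 ± 1.86% at day 3 and 31.0 ± 5.01% at day 7. Lox made up 65.0 ± 0.723%, 61.8 ± 2.03%, 47.9 ± 5.0% and 48.0 ± 6.97% of it in the same groups.

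Loxl4, a further family member, was 2.46 ± 0.466 RPKM at day 1, against 1.23 ± 0.16 RPKM in naive (SD, n = 3 each), with all day 1 libraries above all naive ones. Its difference of 0.77 ± 0.22 did not pass (limma, adjusted p = 0.0838). It passed in 1 of 21 other settings, voom on the recovered reads (adjusted p = 0.023), with adjusted p up to 0.26 in the others. Loxl3 averaged 1.47 to 1.83 RPKM across the groups and did not pass in any comparison. Loxl1, known for its role in elastic fibres, stayed at or below 0.454 RPKM and was not tested.

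**Figure D2:**
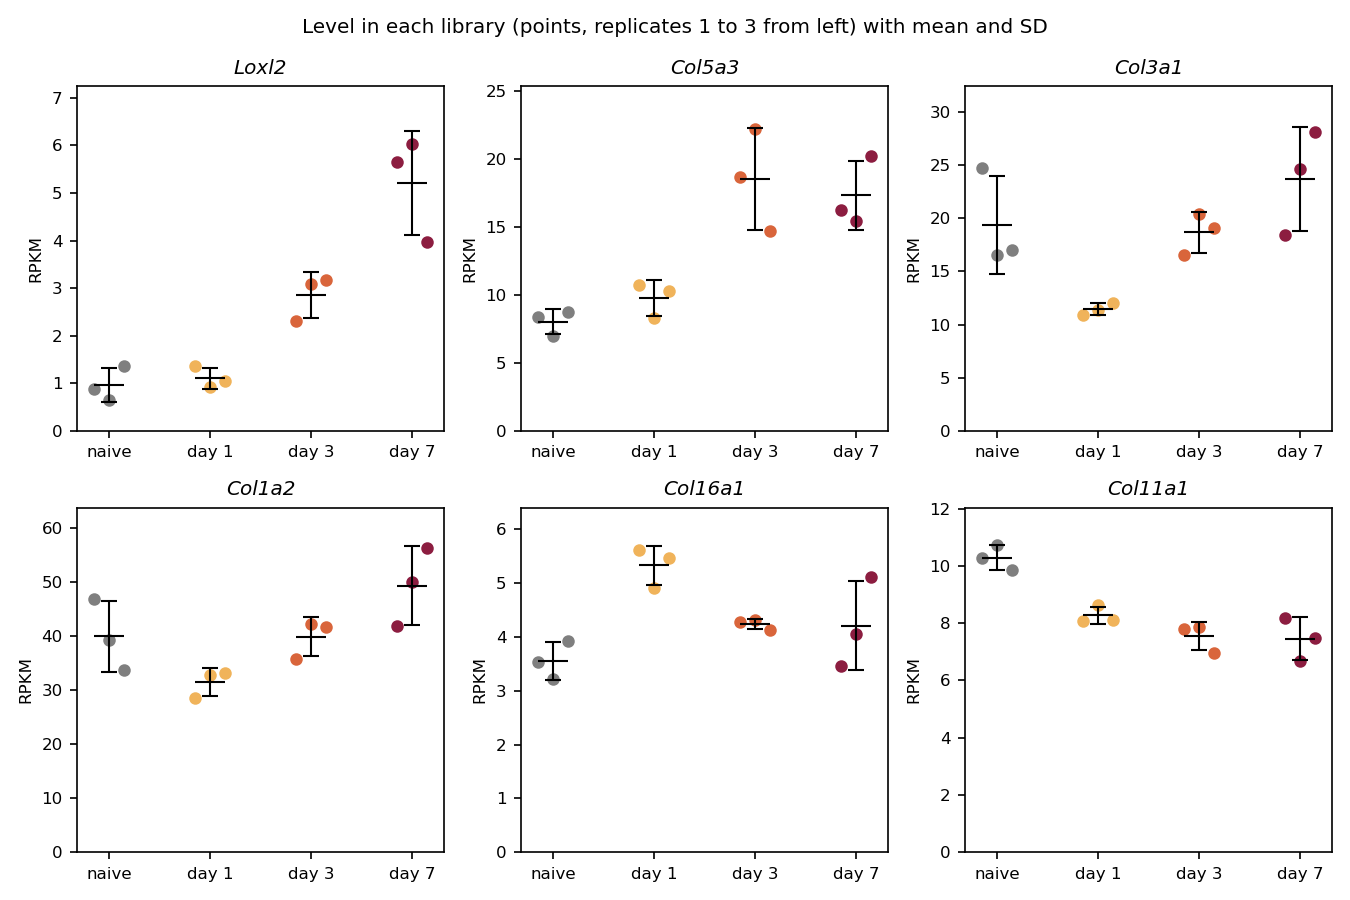
RPKM in each library (points), with mean and SD (bars), of the 6 members that passed in any comparison, for naive, day 1, day 3 and day 7 from left to right. Loxl2 and Col5a3 are higher at day 3 and day 7, Col3a1 and Col1a2 are lowest at day 1, Col16a1 is highest at day 1 and Col11a1 is lower on all injured days.

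Among the type V chains, Col5a3 rose while its partners Col5a1 and Col5a2 did not pass in the limma fit. Type V collagen is a minor component inside type I fibres that limits their diameter, and in rat its alpha 3 chain is known from Schwann cells. Col5a3 lies on chromosome 9 from 20770050 to 20815067 on the minus strand. It measured 8.36, 6.98 and 8.74 RPKM in naive, 10.7, 8.28 and 10.3 RPKM at day 1, 18.6, 22.2 and 14.7 RPKM at day 3, and 16.3, 15.5 and 20.2 RPKM at day 7. Day 1 overlapped naive, and all 6 libraries of day 3 and day 7 lay above all 6 of naive and day 1.

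The mean of Col5a3 was 18.5 ± 3.76 RPKM at day 3, against 8.02 ± 0.924 RPKM in naive (SD, n = 3 each), a rise of 1.11 ± 0.15 on the log2 scale (limma, adjusted p = 0.000545). At day 7 it was 17.3 ± 2.56 RPKM, a rise of 1.02 ± 0.15 over naive (adjusted p = 0.00156). Both passed in all 21 other settings. Against day 1 the differences were 0.84 ± 0.15 at day 3 (adjusted p = 0.0319) and 0.75 ± 0.15 at day 7 (adjusted p = 0.035), and these were less firm, passing in 13 and 7 of 21 other settings. The first was lost without any 1 of the day 1 libraries or without day 3 replicate 1 or 2 (adjusted p up to 0.155), the second without any 1 of the day 1 or day 7 libraries, day 3 replicate 1 or naive replicate 2 or 3 (up to 0.125).

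Col5a2 averaged 8.43 ± 0.354 RPKM at day 7, against 6.10 ± 0.579 RPKM in naive, without overlap, a difference of 0.40 ± 0.12 that did not pass (limma, adjusted p = 0.116). With voom Col5a2 passed at day 7 against day 1 (adjusted p = 0.0341) and not against naive (0.0537). Col5a1 averaged 5.15 ± 1.41 RPKM at day 7, against 4.25 ± 0.364 RPKM in naive, and overlapped (adjusted p = 0.75). Col5a3 made up 43.6 ± 2.57% of the summed RPKM of the 3 type V chains in naive, 50.1 ± 4.42% at day 1, 60.8 ± 5.13% at day 3 and 55.9 ± 1.70% at day 7. In each library of day 3 and day 7 this share was 54.9% or more, and in each naive library 46.6% or less.

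The chains of types I and III, the bulk of the fibrillar collagen, had their lowest levels at day 1 and their highest at day 7. Col3a1, the chain of type III collagen found in pliable connective tissue, lies on chromosome 1 from 45311538 to 45349706 on the plus strand. It was 24.7, 16.5 and 17.0 RPKM in naive, 10.9, 11.4 and 12.03 RPKM at day 1, 16.6, 20.4 and 19.1 RPKM at day 3, and 18.4, 24.6 and 28.1 RPKM at day 7. The day 1 libraries lay close together and below all others, and naive overlapped day 3 and day 7.

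Col3a1 averaged 11.4 ± 0.572 RPKM at day 1, against 19.4 ± 4.61 RPKM in naive (SD, n = 3 each), and fell by 0.71 on the log2 scale with a standard error of 0.13 (limma, adjusted p = 0.00871). Naive replicate 1, the naive library with the most Col3a1, Col1a2 and Col1a1, was also the one high in muscle markers. Without that library and day 7 replicate 2 the difference of Col3a1 was -0.56 (adjusted p = 0.0542). Without day 1 replicate 1 it was -0.69 (adjusted p = 0.0511). The other 19 settings kept the call, among them the one without naive replicate 1 alone. The part of muscle tissue in the levels of Col3a1, Col1a2 and Col1a1 was not tested. Day 7 exceeded day 1 by 0.96 ± 0.13 (adjusted p = 0.00435), which passed in all 21 other settings, while day 7 against naive gave 0.25 ± 0.13 (adjusted p = 0.492).

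Col1a2, the alpha 2 chain of type I collagen, was the most abundant member and lies on chromosome 6 from 4504814 to 4541544 on the plus strand. It measured 46.9, 39.2 and 33.8 RPKM in naive, 28.6, 32.8 and 33.2 RPKM at day 1, 35.9, 42.3 and 41.7 RPKM at day 3, and 41.8, 50.04 and 56.3 RPKM at day 7. All day 1 libraries lay below all others, with 33.2 RPKM at most against 33.8 RPKM in the lowest naive library. The difference of day 1 from naive was -0.32 ± 0.12 and did not pass (limma, adjusted p = 0.186). Day 7 exceeded day 1 by 0.59 ± 0.12 (adjusted p = 0.0321), which passed in 9 of 21 other settings and was lost without any 1 of the day 1 libraries, day 3 replicate 2 or 3, day 7 replicate 2 or 3 or naive replicate 2 (adjusted p up to 0.146).

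Col1a1, the alpha 1 chain of type I collagen, gave 28.2, 22.7 and 18.1 RPKM in naive, 13.8, 20.5 and 17.4 RPKM at day 1, 19.7, 22.7 and 22.9 RPKM at day 3, and 21.7, 29.4 and 35.5 RPKM at day 7. Day 1 overlapped naive but not day 7. No test of Col1a1 passed, with 0.67 ± 0.17 at day 7 against day 1 as its largest difference (limma, adjusted p = 0.0889), which passed in 2 of 21 other settings, among them voom (adjusted p = 0.014). Together Col1a1, Col1a2 and Col3a1 made up 33.4 ± 3.93% of the summed RPKM of the 49 members in naive, 27.1 ± 1.97% at day 1, 31.4 ± 2.03% at day 3 and 33.8 ± 3.30% at day 7. The sum over all 49 was 245 ± 17.8, 222 ± 6.66, 256 ± 9.85 and 300 ± 30.4 RPKM in these groups.

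Col11a1 fell when the 3 injured days were pooled. It encodes a type XI chain, which is known from cartilage and also assembles with type V chains, and lies on chromosome 3 from 114030540 to 114220718. It was 10.3, 10.7 and 9.85 RPKM in naive, 8.07, 8.63 and 8.11 RPKM at day 1, 7.81, 7.85 and 6.97 RPKM at day 3, and 8.19, 6.70 and 7.47 RPKM at day 7. All 9 injured libraries lay below all 3 naive ones. Over the mean of the 3 injured days Col11a1 fell by 0.41 with a standard error of 0.11 (limma, adjusted p = 0.0411).

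This call on Col11a1 was near the threshold and passed in 8 of 20 other settings. It was lost without any 1 of the naive libraries (adjusted p up to 0.233), without day 1 replicate 1 or 3, day 3 replicate 2 or 3 or day 7 replicate 2 or 3. No single day passed, with adjusted p = 0.322 at day 1, 0.0633 at day 3 and 0.0803 at day 7. The difference at day 3 passed in 5 of 21 other settings and that at day 7 in 4 of 21, with voom among them for both (adjusted p = 0.0285 at day 3 and 0.0342 at day 7). The remaining tested fibrillar chains, Col24a1 and Col27a1, averaged 6.93 to 8.40 RPKM and 2.53 to 3.66 RPKM across the groups and did not pass. Of 10 cartilage and bone markers 3 were tested, 1 of which fell at day 3. The sum of all 10 ran from 5.61 to 9.35 RPKM over the injured days, against 7.50 to 10.8 RPKM in naive. Hapln1 made up most of that sum, with 5.83 ± 0.525 RPKM in naive and 3.53 ± 0.24 RPKM at day 3. Matn1 was at 0 in all 12 libraries, and 5 of the 10 were at 0 in at least 1 library. The part of other tissue in the fall of Col11a1 was not tested.

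**Figure D3:**
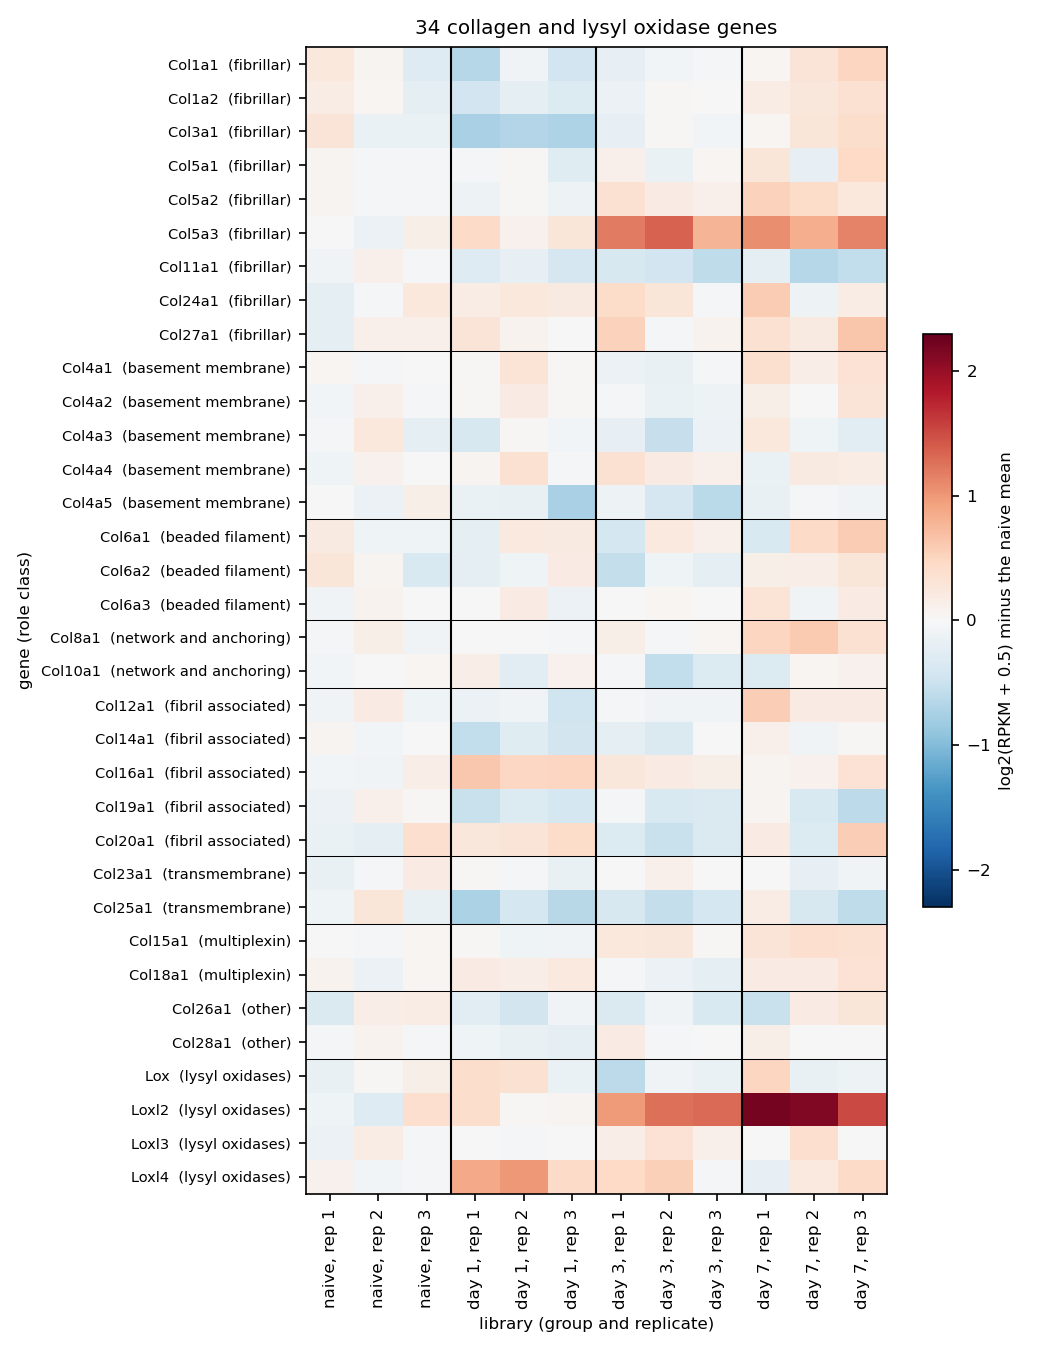
The 34 tested members (rows, by role class) in each of the 12 libraries (columns, naive, day 1, day 3 and day 7 from left to right), coloured by log2(RPKM + 0.5) minus the naive mean of the gene. Loxl2 and Col5a3 are red at day 3 and day 7, Col3a1 is blue at day 1, and most other genes stay near white.

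Of the fibril-associated collagens, which bind to the surface of fibres, Col16a1 passed. Its level was 3.52, 3.22 and 3.92 RPKM in naive, 5.60, 4.91 and 5.46 RPKM at day 1, 4.28, 4.30 and 4.12 RPKM at day 3, and 3.46, 4.05 and 5.10 RPKM at day 7. All day 1 libraries lay above all naive ones, and day 7 overlapped naive. The rise at day 1 was 0.53 ± 0.14 (limma, adjusted p = 0.0492), just inside the threshold. It passed in 5 of 21 other settings and was lost without any 1 of the naive, day 1 or day 3 libraries or day 7 replicate 2 (adjusted p up to 0.201).

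Col12a1 and Col14a1, which link fibres to the surrounding matrix, were the most abundant of this class. Col12a1 was 10.4, 11.5 and 9.56 RPKM in naive, 9.29, 9.52 and 7.89 RPKM at day 1, 10.2, 10.3 and 10.2 RPKM at day 3, and 14.7, 12.6 and 13.2 RPKM at day 7. Col14a1 was 6.82, 5.70 and 6.07 RPKM in naive, 3.92, 4.84 and 4.71 RPKM at day 1, 5.20, 5.08 and 6.43 RPKM at day 3, and 6.33, 6.12 and 7.03 RPKM at day 7. All day 1 libraries of both genes lay below all naive ones in RPKM, and all day 7 libraries of Col12a1 lay above all others. After scaling, this held for Col14a1 at day 1, whereas day 1 and day 7 of Col12a1 each overlapped naive. Neither passed. The difference of day 7 from day 1 was 0.54 ± 0.14 for Col12a1 (limma, adjusted p = 0.109), which passed with voom (0.029), and that of day 1 from naive was -0.42 ± 0.13 for Col14a1 (adjusted p = 0.121). Col19a1 and Col20a1 averaged 1.67 to 2.38 RPKM and 0.579 to 1.23 RPKM across the groups and did not pass.

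The chains of basement membrane type IV collagen showed no difference that passed. Col4a1 was 11.96, 10.2 and 10.9 RPKM in naive, 10.9, 13.2 and 11.8 RPKM at day 1, 9.93, 10.3 and 11.3 RPKM at day 3, and 13.4, 13.0 and 15.4 RPKM at day 7. Col4a2, which is transcribed in the opposite direction from the start of Col4a1 on chromosome 8, was 8.64, 9.04 and 8.20 RPKM in naive, 8.64, 9.49 and 9.28 RPKM at day 1, 8.37, 8.09 and 8.24 RPKM at day 3, and 8.83, 9.13 and 11.8 RPKM at day 7. The day 7 libraries of Col4a1 lay above all naive ones, with a difference of 0.29 ± 0.11 (limma, adjusted p = 0.269), and those of Col4a2 overlapped naive (adjusted p = 0.707). Col4a3, Col4a4 and Col4a5, chains of more specialised membranes, averaged 0.698 to 1.28 RPKM in all groups. All 5 tested chains had a median difference of 0.075 from naive at day 7.

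Type VI collagen forms beaded filaments near cell surfaces, and its 3 common chains did not pass in any comparison. Col6a3 was 4.14, 4.31 and 4.11 RPKM in naive, 4.14, 4.68 and 3.96 RPKM at day 1, 4.13, 4.53 and 4.32 RPKM at day 3, and 4.98, 4.16 and 5.37 RPKM at day 7. Col6a1 was 3.88, 2.80 and 2.85 RPKM in naive, 2.57, 3.64 and 3.87 RPKM at day 1, 2.23, 3.95 and 3.63 RPKM at day 3, and 2.21, 4.67 and 5.46 RPKM at day 7. Every injured day of both genes overlapped naive, and the day 7 libraries of Col6a1 spanned the lowest and the highest RPKM of all 12. Col6a2 averaged 2.82 to 4.09 RPKM across the groups.

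Of the network-forming collagens, Col8a1, a short-chain collagen known from vessel walls and the basement membrane of the cornea, came close to the threshold. It was 5.08, 5.30 and 4.64 RPKM in naive, 4.85, 4.79 and 5.08 RPKM at day 1, 5.48, 5.16 and 5.43 RPKM at day 3, and 6.73, 8.26 and 7.21 RPKM at day 7. All day 7 libraries lay above all others. The difference of day 7 from naive was 0.48 ± 0.12 (limma, adjusted p = 0.0572). It passed in 2 of 21 other settings, without scaling between libraries (adjusted p = 0.0279) and with voom (0.0223), with adjusted p up to 0.413 in the others. Col10a1, known from growing cartilage, was 2.79, 2.70 and 2.84 RPKM in naive, 3.07, 2.168 and 3.15 RPKM at day 1, 2.63, 1.80 and 2.23 RPKM at day 3, and 2.00, 3.04 and 3.33 RPKM at day 7, and did not pass. It overlaps Nt5dc1 on the other strand, as Loxl3 does Htra2 and Col18a1 does Slc19a1, with the same limit as for Loxl2.

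The multiplexins Col15a1 and Col18a1, proteoglycan collagens of basement membrane zones, did not pass. Col15a1 was 8.64, 7.85 and 8.47 RPKM in naive, 8.34, 7.49 and 8.23 RPKM at day 1, 9.86, 10.5 and 8.89 RPKM at day 3, and 9.63, 11.6 and 11.9 RPKM at day 7. Its day 3 and day 7 libraries lay above all naive ones in RPKM, but after scaling only those of day 7 did. The difference at day 7 was 0.34 ± 0.11 (limma, adjusted p = 0.13). Col18a1, the source of endostatin, was 2.16, 1.63 and 1.96 RPKM in naive, 2.20, 2.08 and 2.41 RPKM at day 1, 1.84, 1.77 and 1.65 RPKM at day 3, and 2.10, 2.36 and 2.78 RPKM at day 7. Each injured day of Col18a1 overlapped naive in RPKM, while after scaling its day 1 and day 7 libraries lay above all naive ones.

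The transmembrane collagens and type XXVIII did not pass either. Col23a1 was 6.43, 6.58 and 7.90 RPKM in naive, 6.92, 6.55 and 6.40 RPKM at day 1, 6.88, 8.01 and 7.32 RPKM at day 3, and 6.48, 6.37 and 7.25 RPKM at day 7. Col25a1, known for its role in the innervation of muscle by motor neurons, was 1.87, 2.34 and 1.62 RPKM in naive, 0.948, 1.29 and 1.11 RPKM at day 1, 1.36, 1.23 and 1.39 RPKM at day 3, and 2.08, 1.44 and 1.24 RPKM at day 7. All its day 1 and day 3 libraries lay below all naive ones, with -0.59 ± 0.22 at day 1 (limma, adjusted p = 0.203).

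Col28a1, whose product surrounds non-myelinating glia in the peripheral nervous system, was the second most abundant member over all libraries. It was 24.3, 24.3 and 23.0 RPKM in naive, 21.7, 20.3 and 21.3 RPKM at day 1, 26.9, 24.6 and 25.1 RPKM at day 3, and 24.6, 25.1 and 26.1 RPKM at day 7. Day 1 lay below all naive libraries and, in RPKM only, days 3 and 7 lay above them. After scaling, days 3 and 7 overlapped naive. The widest difference was 0.22 ± 0.10 for day 3 over day 1, and none passed (limma, adjusted p = 0.506 among the 4 groups). Col26a1 was 1.19, 1.70 and 1.78 RPKM in naive, 1.21, 0.988 and 1.503 RPKM at day 1, 1.11, 1.497 and 1.14 RPKM at day 3, and 0.870, 1.90 and 2.20 RPKM at day 7, with every day overlapping naive.

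The 15 members that were not tested were Col2a1, Col4a6, Col6a4, Col6a5, Col6a6, Col7a1, Col8a2, Col9a1, Col9a2, Col9a3, Col11a2, Col13a1, Col17a1, Col22a1 and Loxl1, with means over the 12 libraries from 0.0542 to 0.653 RPKM. Just outside the filter was Col6a5, which reached 1 RPKM in 1 library, and just inside it was Col4a5, which did so in 4 libraries at a mean of 0.844 RPKM. Of the 34 tested members 26 reached 1 RPKM in all 12 libraries, and 0 passed the filter through a single group.

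Genes of the machinery around the collagens were counted in the same fits. There 3.44%, 5.81% and 2.88% of all genes tested passed at day 1, day 3 and day 7 against naive. At such shares, 0 or 1 passing gene in a list of 7 to 20 does not set that list apart. Of the enzymes and chaperones that hydroxylate, glycosylate and fold collagen chains, 20 were tested and 0 passed in any of the comparisons. The smallest adjusted p among the 4 groups was that of P4ha3, a prolyl 4-hydroxylase subunit (limma, adjusted p = 0.129). Of 7 tested procollagen processing genes 1 passed. Bmp1, the proteinase that removes the C-propeptide of fibrillar procollagens and also activates Lox, averaged 5.55 ± 1.36 RPKM at day 1 and 5.29 ± 1.52 RPKM at day 3, against 2.96 ± 0.255 RPKM in naive (SD, n = 3 each). It rose by 0.79 ± 0.19 at day 1 (adjusted p = 0.032) and 0.68 ± 0.19 at day 3 (adjusted p = 0.0484), while day 7 gave 0.48 ± 0.19 (adjusted p = 0.257).

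Of 17 tested collagen-binding proteoglycans and other matrix genes 0 passed in any comparison, with a median difference of 0.262 from naive at day 7. The lowest adjusted p among the 4 groups in that list was 0.0607 for Lum, which encodes lumican. Of 10 tested collagen receptors and uptake genes, Itgb1 and Ddr2 passed. Itgb1, the shared beta 1 subunit of the collagen-binding integrins, averaged 70.8 ± 6.30 RPKM at day 3, against 46.3 ± 7.14 RPKM in naive, a rise of 0.58 ± 0.12 (limma, adjusted p = 0.00919). Ddr2, a receptor tyrosine kinase for fibrillar collagen, averaged 12.9 ± 1.26 RPKM at day 7, against 7.37 ± 0.699 RPKM in naive, a rise of 0.72 ± 0.17 (adjusted p = 0.0346).

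Markers of macrophages were higher on the same days as Loxl2 and Col5a3. The 9 macrophage markers summed to 10.4 to 16.3 RPKM in naive, 13.3 to 16.4 RPKM at day 1, 27.6 to 37.7 RPKM at day 3 and 28.2 to 39.9 RPKM at day 7, and the late days did not overlap the other groups. Of 8 tested macrophage markers 4 rose at day 3 and 4 at day 7, among them Mrc1, the mannose receptor (1.32 ± 0.17 at day 3, limma, adjusted p = 0.000295), and 0 at day 1. Of all genes tested 5.81% passed at day 3, 2.88% at day 7 and 3.44% at day 1. C1qa was at 0 in 6 libraries. The part of macrophages in the rises of Loxl2 and Col5a3 was not tested.

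The 10 fibroblast markers, genes of the cells best known for making types I and III, summed to 47.6 to 64.3 RPKM in naive, 54.9 to 67.9 RPKM at day 1, 51.0 to 66.6 RPKM at day 3 and 49.1 to 89.7 RPKM at day 7. All 4 groups overlapped, 0 of 7 tested fibroblast markers passed on any day, and Clec3b was at 0 in 1 library. At day 1 the sum in each library lay within or above the range of naive. It rested largely on Gsn and Mfap5, at 21.7 and 13.8 RPKM at day 1, against 19.2 and 14.5 RPKM in naive. The median difference of the 7 tested fibroblast markers from naive was 0.006 at day 1, 0.057 at day 3 and 0.244 at day 7. For all genes tested these medians were -0.007, -0.008 and -0.011. Whether the sum follows the number of fibroblasts was not tested. Of the tested markers of endothelium (10), pericytes and smooth muscle (8) and Schwann cells (9) 0 passed on any day against naive. With 2.88% to 5.81% of all genes passing on a day, 0 of 7 to 10 markers does not show that these cells were unchanged. Of 6 tested satellite glia markers 2 passed at day 1 and 1 at day 3. Ednrb, an endothelin receptor, averaged 10.8 ± 1.74 RPKM at day 1, against 17.3 ± 0.504 RPKM in naive (SD, n = 3 each), and fell by 0.66 on the log2 scale (limma, adjusted p = 0.0172). Ednrb was higher than at day 1 both at day 3 (0.75 ± 0.14, adjusted p = 0.0325) and at day 7 (0.80 ± 0.14, adjusted p = 0.015). Glul, glutamine synthetase, rose by 0.66 ± 0.16 at day 1 (adjusted p = 0.0419) and 0.77 ± 0.16 at day 3 (adjusted p = 0.0128). The 6 satellite glia markers summed to 253 to 399 RPKM at day 1, against 336 to 481 RPKM in naive, and overlapped. Of 9 tested sensory neuron markers Elavl3, an RNA-binding protein, rose at day 1 (adjusted p = 0.0217) and day 3 (adjusted p = 0.00728), and Scn10a, a sodium channel of nociceptors, fell by 0.57 at day 3 (adjusted p = 0.0144). Of 6 tested perineurial and meningeal markers Slc2a1, a glucose transporter also present in vessels, rose at all 3 days, by 1.17 ± 0.17 at day 1 (limma, adjusted p = 0.00108). The part of these cell types in the members' changes was not tested.

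**Figure D4:**
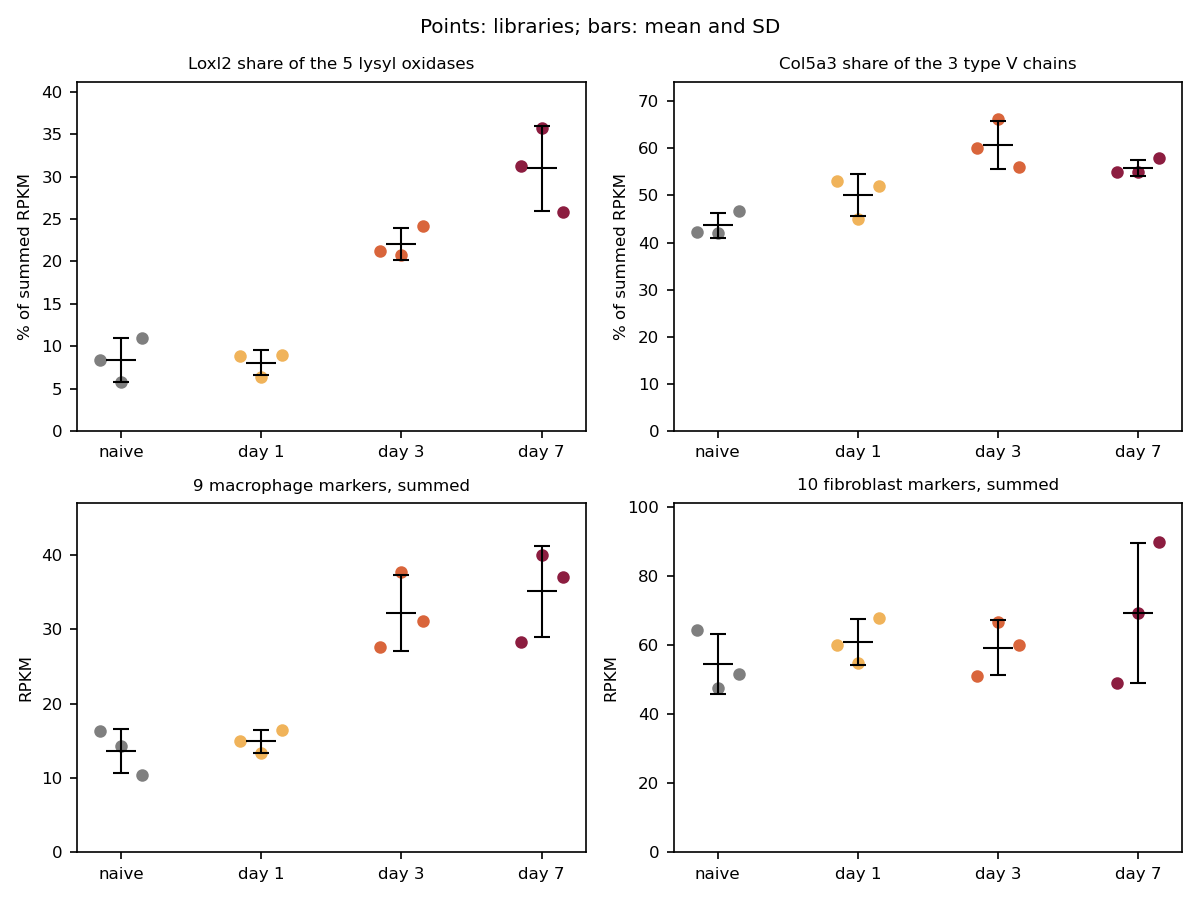
Upper row, share of Loxl2 in the summed RPKM of the 5 lysyl oxidases and of Col5a3 in that of the 3 type V chains, and lower row, summed RPKM of 9 macrophage and 10 fibroblast markers, in each library (points) with mean and SD (bars), for naive, day 1, day 3 and day 7 from left to right. The Loxl2 share reaches 31.0% at day 7 and the macrophage sum is higher at day 3 and day 7, whereas the fibroblast sums overlap in all groups.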

How the data were processed

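Total RNA of mouse dorsal root ganglia was sequenced in 12 libraries, grouped by their titles. Per the labels' protocols, RNA was isolated with Trizol and RNeasy columns and amplified with a Nugen Ovation low input kit. The submitters' processing notes name the mm10 build and the tools STAR, HTSeq, limma, edgeR and bcl2fastq 2.17, without their roles. The deposited values carry no unit and were read as RPKM made by the authors, since they are whole multiples of 1 read per gene for 21265 of 21597 detected genes (98.5%, tolerance 0.05 reads). How reads were counted, and with which strand setting, is not given in the sources used here.

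Genes with 1 RPKM or more in at least 3 libraries were kept, scaled by trimmed means of log ratios and tested as log2(RPKM + 0.5) with limma 3.58.1 in R 4.3.3 (trend, robust, all 12 libraries, 4 group means, 8 residual degrees of freedom, two-sided). The scripts were tested on simulated data. An exact permutation test of 3 against 3 libraries cannot go below 0.1, so none was used. The members, the lists and the settings were chosen with earlier results of these data known. Values per library are given for Loxl2, Col3a1, Col1a2, every member that passed a test and the 2 most abundant members of each role class. Of other pathway genes, up to 6 per list with the smallest p among the 4 groups could be named, and of marker lists the sum and the most abundant genes. Named outside that rule, after their values were seen, were Loxl4, Col5a1, Col5a2 and the markers Slc2a1, Ednrb, Glul, Elavl3 and Scn10a. Gene positions are from GENCODE M21 (GRCm38, the same build as mm10).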

Additional observations from a re-analysis of the deposited data

Results flagged for a closer look

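Differences from naive that were themselves different between injured days are listed here, each tested as a contrast between the days in the limma fit over all genes. Both differences in each pair are taken from the same naive libraries.

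Loxl2 differed from naive by 1.94 at day 7 and by 0.16 at day 1 on the log2 scale, a gap of 1.78 between the days (limma, adjusted p = 0.00368). Col3a1 differed from naive by 0.25 at day 7 and by -0.71 at day 1, a gap of 0.96 (adjusted p = 0.00435). Col1a2 differed by 0.26 at day 7 and by -0.32 at day 1, a gap of 0.59 (adjusted p = 0.0321). Col5a3 differed by 1.11 at day 3, 1.02 at day 7 and 0.27 at day 1, which gave gaps of 0.84 for day 3 over day 1 (adjusted p = 0.0319) and 0.75 for day 7 over day 1 (adjusted p = 0.035).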

How the results depend on the processing

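Loxl2 and Col5a3 at day 3 and day 7 against naive and Loxl2 and Col3a1 at day 7 against day 1 passed in all 21 other settings, and Loxl2 and Col5a3 over the mean of the injured days in all 20. No result changed direction. The numbers of members called moved more.

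The share of all genes tested that passed in the same setting stands in brackets. With voom on the recovered reads 7 members passed among the 4 groups (6.63%), against 4 in the fit reported above (4.78%), 3 at day 3 against day 1 (1.03%), 8 at day 7 against day 1 (1.68%) and 4 at day 7 against naive (3.89%). Without scaling between libraries it was 1 at day 1 against naive (3.31%) and 5 at day 7 against naive (3.22%). Without the filter on low values 1 passed at day 1 against naive (2.22%). With the fit limited to the groups compared it was 1 at day 1 against naive (3.3%), 0 at day 3 against day 1 (0.303%) and 2 at day 7 against day 1 (0.183%).

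Without naive replicate 1 and day 7 replicate 2, which are high in muscle transcripts, 0 passed at day 1 against naive (1.98%), 0 at day 3 against day 1 (0.268%) and 2 at day 7 against day 1 (0.275%). Without naive replicate 1 and day 7 replicate 1, a setting chosen after seeing the data, it was 1 at day 1 against naive (3.25%), 2 at day 3 against day 1 (0.697%) and 4 at day 7 against naive (4.13%). The cause was not tested.

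With the replicate block 1 passed at day 1 against naive (2.61%), 0 at day 3 against day 1 (0.204%) and 2 at day 7 against day 1 (0.585%). The replicate numbers did not pair the libraries: correlations of same-numbered libraries ran from -0.34 to 0.235 in 18 pairs, 3 of them over 0.1, 2 of 12 libraries correlated best with their own number on average over the other groups, and 4 of 12 had their single highest correlation with it.

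When each library was left out in turn, the number called ran from 0 to 2 at day 1, 2 to 3 at day 3 and 2 to 3 at day 7 against naive, from 0 to 2 at day 3 and 2 to 4 at day 7 against day 1, and stayed at 0 at day 7 against day 3. It ran from 2 to 3 for the mean of the injured days and from 3 to 5 among the 4 groups. Against naive, the share of all genes that passed ran from 1.56% to 4.31% at day 1 and 3.13% to 7.48% at day 3. That share ran from 0.0845% to 0.747% at day 3 against day 1 and from 2.59% to 6.4% among the 4 groups. The fit uses a spread shared by all 4 groups, so a group left with 2 libraries draws its spread mostly from the others. Loxl2 in naive rests on 56 to 107 reads, and amplified reads are not independent molecules.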

Other observations

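The proportions between chains that assemble into the same molecule were as follows. The ratio of Col1a1 to Col1a2 in RPKM was 0.572 ± 0.0344 in naive, 0.544 ± 0.0728 at day 1, 0.545 ± 0.00608 at day 3 and 0.580 ± 0.0560 at day 7 (SD, n = 3 each). That of Col4a1 to Col4a2 was 1.28 ± 0.132, 1.31 ± 0.0693, 1.28 ± 0.0902 and 1.41 ± 0.110 in the same groups. The ratio of Col3a1 to Col1a2, chains of different collagens, was 0.484 ± 0.0558 in naive, 0.363 ± 0.0170 at day 1, 0.467 ± 0.0132 at day 3 and 0.477 ± 0.0326 at day 7, and all day 1 values lay below all naive ones. These ratios were not tested.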
